A study of Mus musculus with 8 samples.

Results

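The genes described here are 9 output genes of the circadian clock in mouse liver: nocturnin (Noct), Usp2, Ciart, the PAR bZIP genes Dbp, Tef and Hlf, their repressor Nfil3, and the bHLH repressors Bhlhe40 and Bhlhe41. They were chosen by gene name, with earlier results of these data known. Each of the 9 has 1 row among the 30266 genes of the deposited table. Whole liver was taken from male Mdr2-/- mice, 8 weeks old, either 4 h after recombinant FGF21 (rFGF21, 1.0 mg/kg, 4 libraries) or after PBS vehicle (4 libraries). All mice carry the same genotype, the loss of the canalicular phospholipid transporter now called Abcb4, which gives a cholestatic liver, so no comparison with a healthy liver was analysed here. The labels give no time of day for the injection or for tissue collection, no feeding state, and no statement that each library is 1 animal; p-values therefore measure the spread between these libraries. With a single time point per group, a lower level cannot be told apart from a shifted phase of a rhythm.

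In liver the molecular clock is a loop in which BMAL1 and CLOCK bind E-box sequences and drive their own repressors, the PER and CRY proteins. Output genes carry that rhythm to metabolism. DBP, TEF and HLF are activators that share a PAR-type basic leucine zipper and bind D-box sequences of genes for bile acid, heme and drug metabolism, and NFIL3 (E4BP4) competes with them there as a repressor. BHLHE40 and BHLHE41 (DEC1 and DEC2) and CIART (CHRONO) feed back on BMAL1 and CLOCK. Nocturnin was long described as a deadenylase and was later shown to remove a phosphate from NADP(H); it takes part in lipid handling. USP2 is a rhythmic deubiquitinase whose substrates include clock proteins.

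The 8 libraries held between 62756328 and 73313449 reads, and the 9 genes were all deep enough to be tested; the fewest reads were the 78 of Bhlhe41 in PBS library 4. Libraries are named by group and column number, and a shared number does not pair them. The extract protocol names retinas, but the 8 libraries held 0 reads of Crx and of Rcvrn, photoreceptor genes; a count of 0 allows at most 3 per library by counting error alone. The summed level of 5 hepatocyte markers (Alb, Apoa1, Ttr, Fgb, Hnf4a) was 58596 to 73198 CPM (counts scaled to a common library size) in rFGF21 and 56524 to 77070 CPM in PBS libraries. All CPM values carry TMM scaling. PBS library 4 stood apart in its share of mitochondrially encoded reads, 7.96% against 3.27% to 4.55% in the other libraries. Cholangiocyte markers did not overlap in sum (49.0 to 83.4 CPM in rFGF21, 34.1 to 48.5 CPM in PBS), although 0 of their 4 genes passed the test over all genes with edgeR or limma and 2 with DESeq2 (4 were higher at an unadjusted p under 0.05 in edgeR, as were 8.92% of all genes tested). The sum of 6 NK and T cell markers did not overlap either, at 8.31 to 11.3 CPM in rFGF21 and 7.11 to 7.88 CPM in PBS. Of these 6 genes, 0 passed with edgeR or limma and 1 with DESeq2. Over all 18315 genes tested, 516 passed with edgeR, 542 with limma and 1527 with DESeq2. At an unadjusted p under 0.05 in edgeR, 1 was higher (Cd8a). The part of these cells in the results below was not tested, and in whole liver fewer cells of a type and less RNA per cell cannot be told apart.

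After rFGF21, 2 of the 9 genes passed the test, both lower: Noct, which fell 5.27-fold, and Usp2, which fell 2.56-fold. The other 7 did not pass. The 9 were chosen with earlier results of these data known, so their counts and median beside all genes are a description. Over all 18315 genes tested, 2.82% were called (an adjusted p under 0.05 in edgeR's quasi-likelihood fit), 1.67% lower and 1.15% higher. The fitted change was negative for 8 of the 9 genes, with Bhlhe41 as the exception, and their median log2 fold change was -0.50, against 0.00 over all genes tested. The groups did not overlap for 3 of the 9, Noct, Usp2 and Hlf, all lower in rFGF21; over all genes tested the groups did not overlap in 12.3%, lower in 6.39% and higher in 5.9%. At an unadjusted p under 0.05, 6 of the 9 were lower (Noct, Usp2, Ciart, Nfil3, Hlf and Tef) and 1 higher (Bhlhe41); over all genes tested, 9.86% were lower and 8.92% higher at that threshold.

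**Figure D1:**
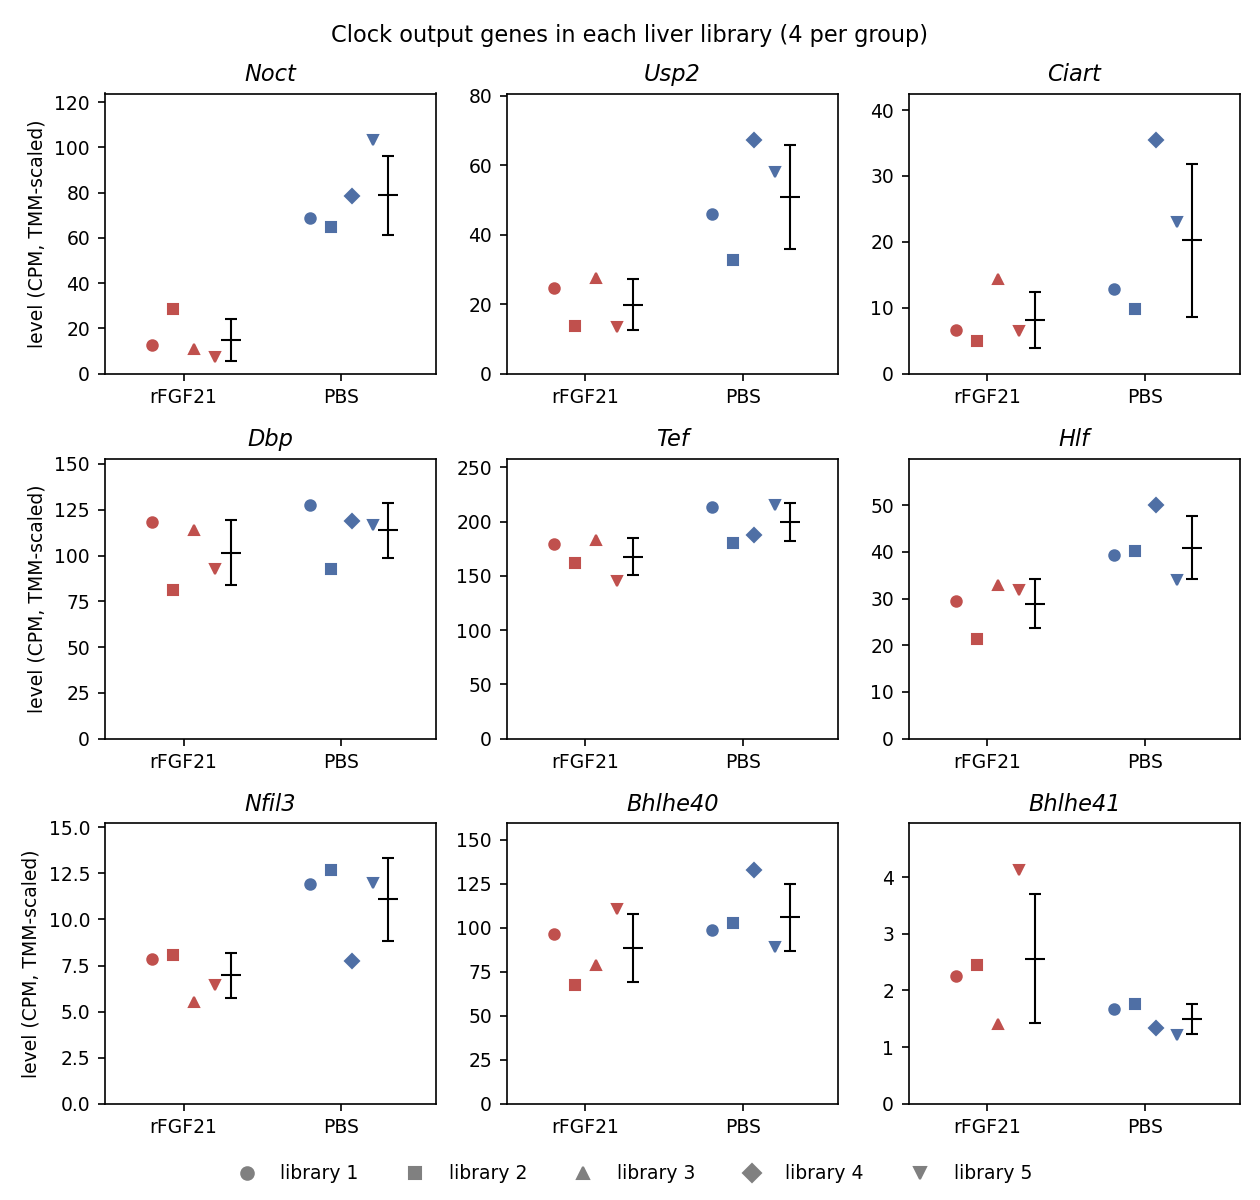
Level of each of the 9 genes (CPM scaled by TMM, linear axes from 0) in the 4 rFGF21 libraries (left, red) and the 4 PBS libraries (right, blue), with a symbol shape for each library number and the group mean with its SD in black. Noct, Usp2 and Hlf show no overlap between the groups, and Dbp and Bhlhe40 overlap broadly.

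Nocturnin showed the largest change of the 9. Noct (ENSMUSG00000023087, GRCm38 chromosome 3, 51224447 to 51251644, plus strand) stood at 12.9, 28.4, 11.1 and 7.44 CPM in rFGF21 libraries 1, 2, 3 and 5, against 68.7, 64.8, 78.4 and 103 CPM in PBS libraries 1, 2, 4 and 5. Every rFGF21 library lay below every PBS library, and the gap between the groups was wide. The means were 15.0 ± 9.2 CPM in rFGF21 and 78.8 ± 17.3 CPM in PBS (SD, n = 4 each), a log2 fold change of -2.40 ± 0.35 (SE; edgeR adjusted p = 0.00898), the 72nd smallest p of all genes tested. Relative spread was wider in rFGF21, with a coefficient of variation of 61.8%, against 21.9% in PBS. rFGF21 library 2 held the highest treated value; without it the log2 fold change was -2.90 (edgeR adjusted p = 0.00117). The call held whichever library was left out, with edgeR adjusted p between 0.00117 and 0.0438. The overlapping gene model Gm38357 on the same strand had 0 to 14 reads in rFGF21 and 9 to 22 reads in PBS libraries, set against 563 or more reads of Noct in any library.

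Usp2, the deubiquitinase, was the other gene that passed (ENSMUSG00000032010, chromosome 9, 44067021 to 44095627, plus strand). It stood at 24.7, 13.8, 27.6 and 13.5 CPM in rFGF21 libraries 1, 2, 3 and 5, against 45.9, 32.6, 67.2 and 58.0 CPM in PBS libraries 1, 2, 4 and 5. The groups did not overlap, but the gap was narrow: rFGF21 library 3 lay just under PBS library 2. The means were 19.9 ± 7.3 CPM in rFGF21 and 50.9 ± 15.0 CPM in PBS (SD, n = 4 each), a log2 fold change of -1.36 ± 0.28 (SE; edgeR adjusted p = 0.0313). With 1 library omitted at a time, the call was lost in 6 of 8 fits: without rFGF21 library 1, 2 or 5 (edgeR adjusted p = 0.0695, 0.0737 and 0.0838) or PBS library 1, 4 or 5 (edgeR adjusted p = 0.0674, 0.0611 and 0.0774). The log2 fold change ranged from -1.56 to -1.19 over these 8 fits. Gm49380, a gene model that spans Usp2 on the opposite strand, had 0 reads in every library.

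Ciart, a repressor of BMAL1 and CLOCK, was the most variable of the 9 in PBS (ENSMUSG00000038550, chromosome 3, 95878503 to 95882231, minus strand). It stood at 6.59, 5.02, 14.4 and 6.41 CPM in rFGF21 libraries 1, 2, 3 and 5, against 12.8, 9.78, 35.4 and 22.9 CPM in PBS libraries 1, 2, 4 and 5. The groups overlapped through rFGF21 library 3, which lay above PBS libraries 1 and 2, and the PBS values spanned 3.62-fold. The log2 fold change was -1.32 ± 0.42 (SE; edgeR adjusted p = 0.126), close in size to that of Usp2 but with a wider error. It was -1.75 without rFGF21 library 3 (edgeR adjusted p = 0.0688) and -0.90 without PBS library 4 (edgeR adjusted p = 0.242). C920021L13Rik, an antisense gene that spans Ciart, had 28 to 77 reads in rFGF21 and 41 to 51 reads in PBS libraries, where Ciart had 356 to 2071 reads in the 8; the sources used here do not say whether the counting used strand.

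The windows around the transcription starts of these 3 genes and of Hlf are shown because Noct, Usp2 and Hlf had no overlap between groups and Ciart had the next largest change after Usp2, and because E-boxes and cAMP response elements (CRE) are the sites through which BMAL1 with CLOCK, and CREB, are known to act. Each runs 5′ to 3′ from 250 bases before to 50 bases after a RefSeq start (GRCm38.p6), on the strand of the gene. Capitals mark the letters searched on both strands: the E-box CACGTG, the CRE TGACGTCA, its half-site TGACG (which also lies within the CRE), the D-boxes TTATGTAA and TTACGTAA, and the ROR element core TAGGTCA.
Noct (chr3:51224197-51224496, plus strand): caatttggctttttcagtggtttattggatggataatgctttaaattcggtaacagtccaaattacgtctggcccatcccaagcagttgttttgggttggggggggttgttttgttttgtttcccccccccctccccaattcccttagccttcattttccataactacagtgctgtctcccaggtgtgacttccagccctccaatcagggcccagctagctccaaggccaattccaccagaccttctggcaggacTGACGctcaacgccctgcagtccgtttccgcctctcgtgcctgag
Usp2 (chr9:44084670-44084969, plus strand): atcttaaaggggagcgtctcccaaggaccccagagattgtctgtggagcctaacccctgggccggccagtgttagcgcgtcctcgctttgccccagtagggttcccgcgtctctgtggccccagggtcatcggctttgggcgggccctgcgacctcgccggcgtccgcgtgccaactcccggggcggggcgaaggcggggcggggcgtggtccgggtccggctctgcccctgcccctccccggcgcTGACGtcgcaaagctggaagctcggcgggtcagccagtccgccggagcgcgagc
Ciart (chr3:95882179-95882478, minus strand): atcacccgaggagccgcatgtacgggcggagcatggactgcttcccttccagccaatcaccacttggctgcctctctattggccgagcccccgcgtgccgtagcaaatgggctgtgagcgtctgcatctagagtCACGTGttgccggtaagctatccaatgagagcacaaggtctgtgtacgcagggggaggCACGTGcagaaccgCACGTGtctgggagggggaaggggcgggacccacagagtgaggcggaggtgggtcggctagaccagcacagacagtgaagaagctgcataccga
Hlf (chr11:90390868-90391167, minus strand): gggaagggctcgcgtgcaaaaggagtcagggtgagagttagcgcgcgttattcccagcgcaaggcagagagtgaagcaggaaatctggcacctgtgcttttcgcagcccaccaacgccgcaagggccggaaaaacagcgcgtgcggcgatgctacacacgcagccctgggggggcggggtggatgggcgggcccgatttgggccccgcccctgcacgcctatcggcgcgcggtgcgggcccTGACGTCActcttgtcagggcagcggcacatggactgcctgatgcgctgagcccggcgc

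Of the 4 windows, that of Ciart held 3 E-boxes, beginning 116, 58 and 44 bases before the start. Among 32851 RefSeq promoter windows of the same length, 7.15% held at least 1 E-box. The Hlf window held a full CRE beginning 9 bases before the start, a sequence found in 1.79% of all windows. Noct and Usp2 held 1 CRE half-site each, beginning 5 bases after and 4 bases before the start, and 20.8% of all windows hold one. The Usp2 window belongs to a start 17899 bases inside the gene as the table gives it, and the counts do not separate transcripts by start. The 2 windows of Tef and that of Bhlhe41 held 1 E-box each, that of Nfil3 a ROR element core (in 2.61% of windows) and a half-site, and that of Dbp none of these letters. No D-box was found in the 9 windows searched, which cover 8 of the genes (2 windows for Tef, none for Bhlhe40), and 1.06% of all windows hold one. These matches describe letters in a short window and say nothing of binding in these livers.

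The 3 PAR bZIP activators did not pass. Dbp (ENSMUSG00000059824, chromosome 7, 45705088 to 45710203, plus strand) stood at 118, 81.1, 114 and 92.4 CPM in rFGF21 libraries 1, 2, 3 and 5, against 127, 92.4, 119 and 117 CPM in PBS libraries 1, 2, 4 and 5. The values overlapped over most of their range, and the log2 fold change was -0.17 ± 0.14 (SE; edgeR adjusted p = 0.577). Tef (ENSMUSG00000022389, chromosome 15, 81802421 to 81826863, plus strand), the steadiest of the 9, stood at 180, 162, 183 and 146 CPM in rFGF21 and 214, 181, 188 and 215 CPM in PBS libraries. rFGF21 library 3 lay above PBS library 2, the only overlap. Its log2 fold change was -0.25 ± 0.11 (SE; edgeR adjusted p = 0.235). Sphk2, which shares 737 bases with Dbp on the opposite strand, had 3186 to 3501 reads in rFGF21 and 2178 to 3332 reads in PBS libraries, so part of the Dbp count is uncertain without a stated strand setting.

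Hlf (ENSMUSG00000003949, chromosome 11, 90336536 to 90390895, minus strand) showed the clearest separation of the PAR bZIP genes, although it too did not pass. It stood at 29.5, 21.4, 32.9 and 31.8 CPM in rFGF21 libraries 1, 2, 3 and 5, against 39.4, 40.3, 49.99 and 34.0 CPM in PBS libraries 1, 2, 4 and 5. All rFGF21 values lay below all PBS values, by a small margin between rFGF21 library 3 and PBS library 5. The log2 fold change was -0.50 ± 0.15 (SE; edgeR adjusted p = 0.113). DESeq2 gave an adjusted p of 0.0339 for the same change, the 1 call among the 14 alternatives run. With a library omitted, Hlf was called in 0 of 8 fits (edgeR adjusted p 0.112 to 0.213).

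Nfil3, the repressor that competes for the same D-boxes, had a negative fitted change, as the activators had, and did not pass (ENSMUSG00000056749, chromosome 13, 52967209 to 52981073, minus strand). It stood at 7.87, 8.09, 5.50 and 6.47 CPM in rFGF21 libraries 1, 2, 3 and 5, against 11.9, 12.7, 7.75 and 12.0 CPM in PBS libraries 1, 2, 4 and 5. PBS library 4 alone reached into the rFGF21 range. The log2 fold change was -0.67 ± 0.18 (SE; edgeR adjusted p = 0.0854). Without PBS library 4 it was -0.80 and passed (edgeR adjusted p = 0.0291), and DESeq2 on the 8 libraries gave an adjusted p of 0.0124. These were the only 2 calls of Nfil3 among the 14 alternatives run. The ratio of Dbp to Nfil3, on levels per kilobase of exon, was 10.2, 6.79, 14.0 and 9.67 in rFGF21 and 7.23, 4.94, 10.4 and 6.60 in PBS libraries; these ranges overlapped.

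The 2 bHLH repressors did not pass and differed in sign. Bhlhe40 (ENSMUSG00000030103, chromosome 6, 108660629 to 108666925, plus strand) stood at 96.5, 67.4, 79.0 and 111 CPM in rFGF21 libraries 1, 2, 3 and 5, against 98.6, 103, 133 and 89.2 CPM in PBS libraries 1, 2, 4 and 5. The groups overlapped, with a log2 fold change of -0.26 ± 0.17 (SE; edgeR adjusted p = 0.439). Bhlhe41 (ENSMUSG00000030256, chromosome 6, 145858243 to 145865558, minus strand) was the least abundant of the 9, at 2.26, 2.44, 1.41 and 4.12 CPM in rFGF21 and 1.68, 1.76, 1.33 and 1.21 CPM in PBS libraries. The 3 treated libraries 1, 2 and 5 lay above all PBS libraries, and library 3 lay among them. Its log2 fold change was 0.78 ± 0.31 (SE; edgeR adjusted p = 0.215), and its sign was positive under all 14 alternatives run.

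**Figure D2:**
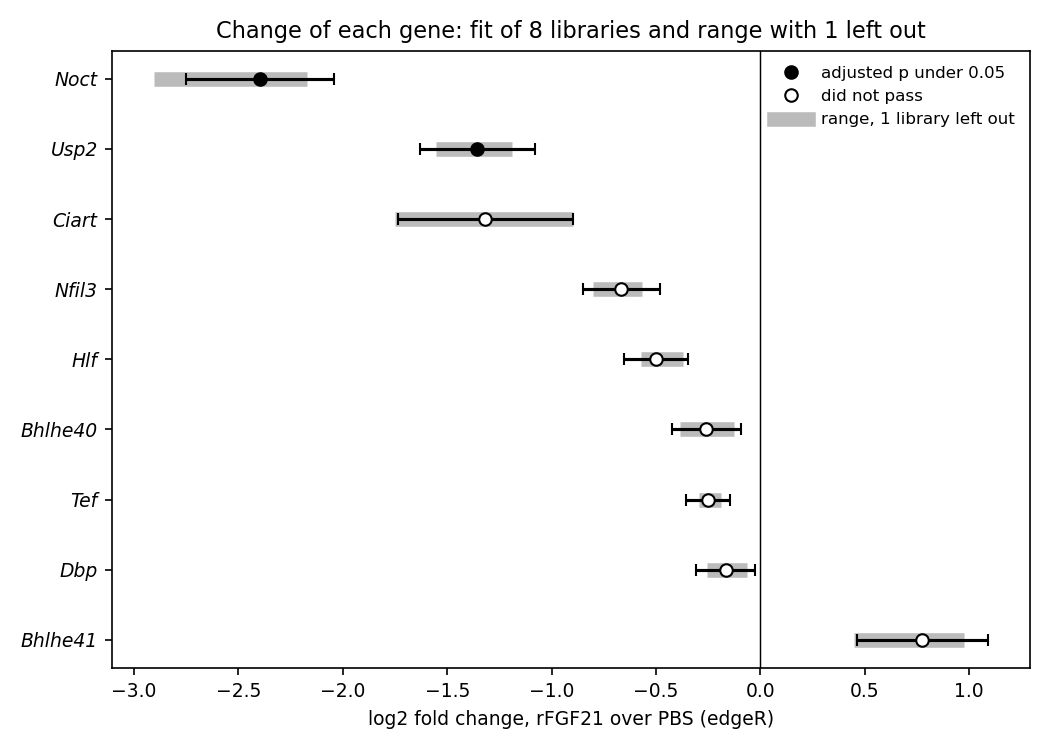
Log2 fold change of each gene, rFGF21 over PBS, from edgeR on 8 libraries (points with SE; filled where adjusted p was under 0.05) and the range over the 8 fits that each left out 1 library (grey). Noct (-2.40) and Usp2 (-1.36) are the 2 filled points, Ciart has the widest error, and Bhlhe41 (0.78) is the 1 gene to the right of 0.

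The libraries of a group differed in a patterned way across these genes. rFGF21 library 2 had the highest Noct of its group and, at the same time, the lowest Dbp, Hlf, Bhlhe40 and Ciart of all 8 libraries. PBS library 4, the library with the high mitochondrial share, had the highest Usp2, Ciart, Hlf and Bhlhe40 of all 8 and the lowest Nfil3 of its group. Spread within a group was smallest for Tef (coefficient of variation 10.3% in rFGF21, 8.83% in PBS) and largest for Ciart in PBS (57.3%) and Noct in rFGF21 (61.8%). What sets these libraries apart was not tested.

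To set the genes side by side, CPM was divided by the kilobases of exon of each gene in GENCODE M21. On this scale Dbp was the most abundant of the 9 in both groups, at 33.9 ± 5.9 CPM per kilobase in rFGF21 and 38.0 ± 5.0 in PBS (SD, n = 4 each). Tef and Bhlhe40 followed, at 21.3 ± 2.2 and 18.8 ± 4.1 CPM per kilobase in rFGF21, and 25.3 ± 2.2 and 22.5 ± 4.0 in PBS libraries, and these neighbours overlapped. In rFGF21 libraries Hlf (4.33 ± 0.78), Usp2 (4.13 ± 1.52), Ciart (3.59 ± 1.89) and Nfil3 (3.45 ± 0.60) came next, each overlapping its neighbour. Noct followed at 1.40 ± 0.87 CPM per kilobase, apart from Nfil3, and Bhlhe41 was last at 0.38 ± 0.17. In PBS libraries the order below Bhlhe40 was Usp2 (10.6 ± 3.1), Ciart (8.95 ± 5.13), Noct (7.39 ± 1.62), Hlf (6.12 ± 1.00) and Nfil3 (5.47 ± 1.11), again with neighbours overlapping, and Bhlhe41 was last at 0.22 ± 0.04 CPM per kilobase. The exon lengths count every annotated transcript, so a gene whose liver transcripts use few of its exons is understated.

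**Figure D3:**
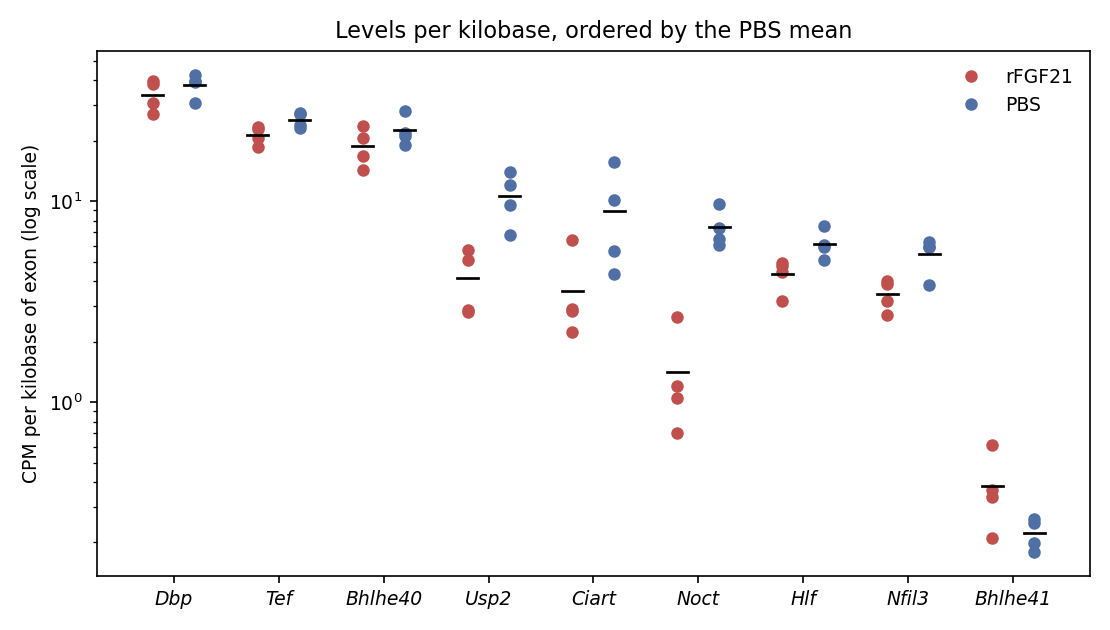
Level per kilobase of exon (CPM per kilobase, log scale) of the 9 genes in each rFGF21 library (red, left of each pair) and each PBS library (blue), with means as black bars, ordered by the PBS mean. Dbp, Tef and Bhlhe40 form the upper group in both treatments, and Noct lies below Nfil3 in rFGF21 libraries and above it in PBS libraries by mean.

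In the core clock loop, from which these outputs are driven, Per1, Arntl and Clock are given. The 15 listed genes of the loop had a median log2 fold change of -0.01, with 8 negative and 7 positive. Over all genes tested, the median was 0.00 and the groups did not overlap in 12.3%. Per1, a clock repressor that also responds acutely to hormones, stood at 42.7 ± 16.0 CPM in rFGF21 and 85.1 ± 20.8 CPM in PBS without overlap and missed the threshold (-0.99 ± 0.25 SE; edgeR adjusted p = 0.0614). Arntl, which encodes BMAL1, stood at 3.70 ± 1.13 CPM in rFGF21 and 2.20 ± 0.50 CPM in PBS, also without overlap (0.75 ± 0.26 SE; edgeR adjusted p = 0.145).

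Of 10 genes reported elsewhere as targets of the PAR bZIP factors or of NFIL3 in liver, 4 were lower and 0 higher. The threshold was an edgeR adjusted p under 0.05, at which 1.67% of all genes tested were lower and 1.15% higher. The median log2 fold change of the 10 was -0.48, against 0.00 over all genes tested. The list was chosen with earlier results of these data known, so these values are a description. Cyp7a1, the rate-limiting enzyme of bile acid synthesis, stood at 57.7 ± 13.4 CPM in rFGF21 and 271 ± 110 CPM in PBS (-2.23 ± 0.29 SE; edgeR adjusted p = 0.00647). Alas1, the entry enzyme of heme synthesis, stood at 245 ± 86 CPM in rFGF21 and 669 ± 161 CPM in PBS (-1.45 ± 0.25 SE; edgeR adjusted p = 0.0162). Nr1i3, which encodes the xenobiotic receptor CAR, stood at 65.6 ± 9.8 CPM in rFGF21 and 169 ± 38 CPM in PBS (-1.36 ± 0.17 SE; edgeR adjusted p = 0.00552). Cyp2a5, a coumarin hydroxylase, stood at 456 ± 113 CPM in rFGF21 and 1087 ± 461 CPM in PBS (-1.25 ± 0.27 SE; edgeR adjusted p = 0.0370). Its near-identical neighbour Cyp2a4 gave 0.09 ± 0.59 (SE; edgeR adjusted p = 0.953), and counts may be split between these copies. Other members went without a call, among them Por, the electron donor of P450 enzymes (-0.19 ± 0.18 SE, edgeR adjusted p = 0.630). Cyp2b10, also without a call, went the other way. It stood at 3.46 ± 1.91 CPM in rFGF21 and 1.32 ± 0.51 CPM in PBS (1.39 ± 0.43 SE, edgeR adjusted p = 0.114). Its groups did not overlap, as in 12.3% of all genes tested. Omitting any single library left Cyp7a1 and Nr1i3 called; Alas1 was lost without rFGF21 library 1 (edgeR adjusted p = 0.0581), and Cyp2a5 stayed called in 4 of the 8 fits (edgeR adjusted p 0.0357 to 0.106).

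**Figure D4:**
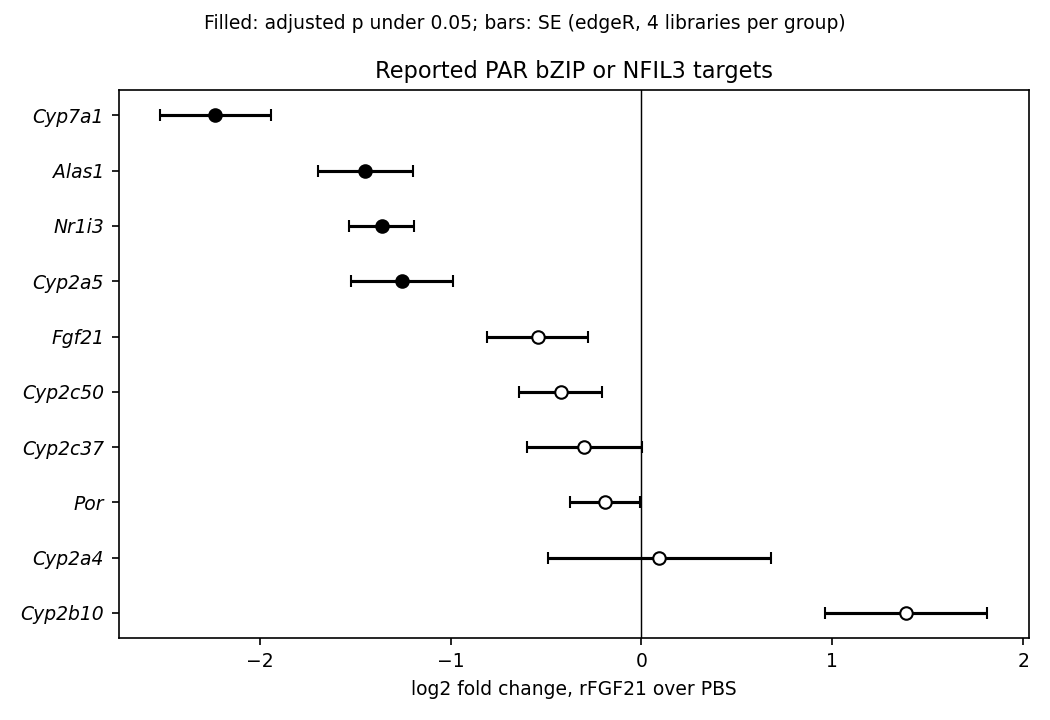
Log2 fold change (rFGF21 over PBS, points with SE, edgeR, 4 libraries per group) of 10 genes reported as PAR bZIP or NFIL3 targets; filled points had an adjusted p under 0.05. Cyp7a1, Alas1, Nr1i3 and Cyp2a5 are the 4 filled points, all left of 0. Cyp2b10, not filled, lies farthest to the right of 0.

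Among 14 other rhythmic liver genes, 1 rose and 0 fell, where 1.15% of all genes tested were called higher and 1.67% lower. The gene that rose was Rgs16, a G protein regulator, at 35.8 ± 18.0 CPM in rFGF21 and 7.73 ± 1.84 CPM in PBS (2.21 ± 0.39 SE; edgeR adjusted p = 0.0178), a call lost without rFGF21 library 1 or PBS library 1 or 5 (edgeR adjusted p up to 0.0594). Upp2, a uridine phosphorylase, stood at 101 ± 36 CPM in rFGF21 and 268 ± 113 CPM in PBS (-1.41 ± 0.35 SE; edgeR adjusted p = 0.0628), and Wee1, a cell cycle kinase driven by the clock, gave 0.05 ± 0.15 (SE; edgeR adjusted p = 0.904). The median of the 14 was -0.05. Of 12 genes related to nocturnin by its nuclease fold, by deadenylation or by NADP synthesis, 1 fell: Cnot8, a deadenylase subunit of the CCR4-NOT complex, at 44.1 ± 3.4 CPM in rFGF21 and 60.5 ± 5.0 CPM in PBS (-0.46 ± 0.09 SE; edgeR adjusted p = 0.0285), a call lost in 7 of 8 fits with a library omitted (edgeR adjusted p up to 0.0820, with 0.0349 in the fit without PBS library 4). Their median was -0.07, and 1.67% of all genes tested were called lower. The 12 deubiquitinases and targets set beside Usp2 had 0 calls with edgeR, DESeq2 or limma, 0 at an unadjusted p under 0.05 and a median of 0.09. With edgeR, 2.82% of all 18315 genes tested were called, and DESeq2 called 1527 of them and limma 542.

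Of 13 genes known to respond to glucocorticoids or to fasting signals through cAMP, 0 passed with edgeR and 1 with DESeq2 or limma, while 5 were lower and 1 higher at an unadjusted p under 0.05 (9.86% and 8.92% of all genes tested). Over all 18315 genes tested, DESeq2 called 1527 and limma 542, against 516 with edgeR. The median log2 fold change of the 13 was -0.67, against 0.00 over all genes tested, with 9 negative and 4 positive. The 1 higher gene was Zbtb16. It stood at 34.2 ± 9.7 CPM in rFGF21 and 23.1 ± 6.7 CPM in PBS (0.57 ± 0.23 SE, edgeR adjusted p = 0.213). Tat, which breaks down tyrosine, stood at 1005 ± 627 CPM in rFGF21 and 2006 ± 666 CPM in PBS (-0.997 ± 0.368 SE; edgeR adjusted p = 0.174), and G6pc, the last enzyme of glucose production, at 31.7 ± 42.7 CPM in rFGF21 and 149 ± 83 CPM in PBS (-2.23 ± 0.89 SE; edgeR adjusted p = 0.208). Of the 5 tested C/EBP family genes, which share the bZIP fold with Dbp, 0 passed with edgeR or limma and 1 with DESeq2, and 1 was lower at an unadjusted p under 0.05, as were 9.86% of all genes tested: Cebpb, at 41.2 ± 15.1 CPM in rFGF21 and 83.7 ± 25.7 CPM in PBS without overlap (-1.02 ± 0.26 SE; edgeR adjusted p = 0.0628).

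The genes with the profile closest to Noct were found by the root mean square difference of log2 CPM over the 8 libraries, each gene centred on its own mean, among 12790 named genes with a mean of at least 1 CPM. They were Lrit1 (0.43), Mcm10 (0.46), Pim3 (0.49), Cabyr (0.51) and Cyp21a1 (0.51). The difference between Noct and the other 8 genes of the set was larger, from 0.90 for Usp2 to 1.79 for Bhlhe41. The 5 were picked as the closest of 12790 genes that left out the set, so this comparison is a description. Mcm10, a DNA replication factor, stood at 20.5, 20.6, 13.6 and 6.25 CPM in rFGF21 libraries 1, 2, 3 and 5, against 53.3, 40.8, 58.5 and 60.9 CPM in PBS libraries 1, 2, 4 and 5. Pim3, a serine/threonine kinase, stood at 21.8, 47.0, 16.8 and 14.5 CPM in rFGF21 and 109, 96.0, 47.1 and 135 CPM in PBS libraries. Both were lowest in rFGF21 library 5 and highest in PBS library 5, as Noct was. Lrit1, Cabyr and Cyp21a1 were also lowest in rFGF21 library 5 but highest in PBS library 4. Cyp21a1 overlapped between the groups and did not pass (edgeR adjusted p = 0.0817). Closest to Dbp were Arl3 (0.08), Mrps34 (0.09), Fhad1 (0.10), Rpl35 (0.10) and Bmp5 (0.11). These genes were picked for their likeness, so their changes are a description.

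**Figure D5:**
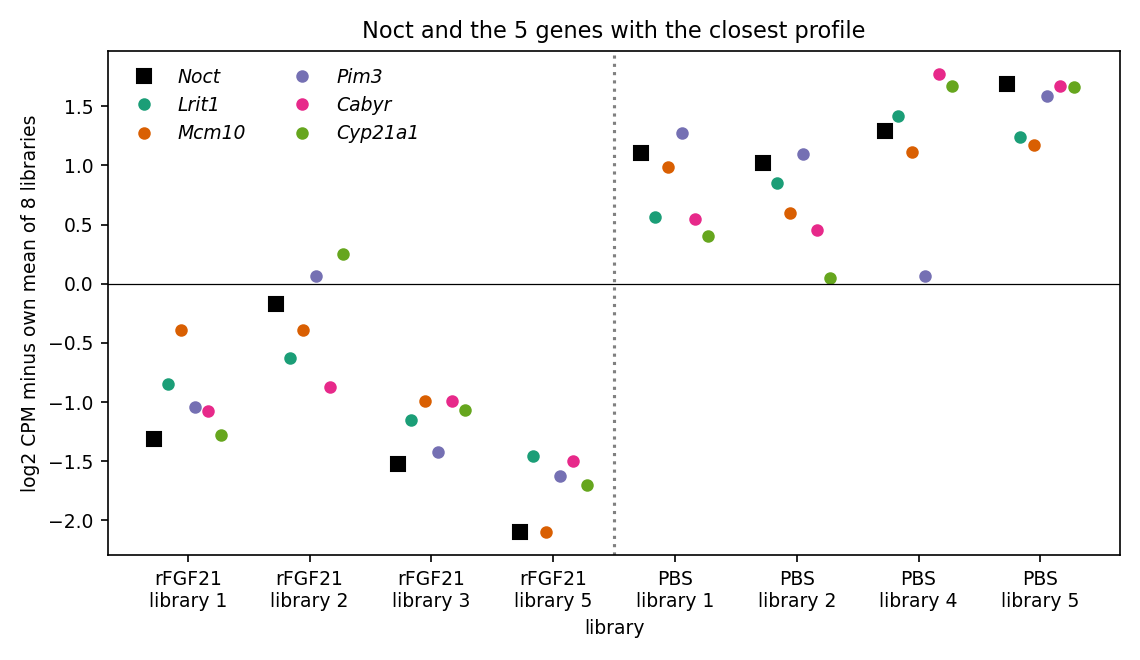
Log2 CPM minus each gene's own mean over 8 libraries, for Noct (black squares) and the 5 genes with the smallest root mean square difference from it (Lrit1, Mcm10, Pim3, Cabyr and Cyp21a1), with the rFGF21 libraries left of the dotted line and the PBS libraries right of it. Noct is below 0 in the 4 rFGF21 libraries and above 0 in the 4 PBS libraries, with rFGF21 library 2 nearest to 0.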

How the data were processed

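RNA sequencing of whole liver gave 8 libraries used here, 4 per group. Read counts per gene, whole numbers, were deposited in 1 table, per the file headers; the sources used here do not give the counter or its strand setting. Bowtie 0.12.2 and mm8 are named, per the submitters' processing notes, but 27322 of the 30177 gene identifiers found in GENCODE M21 (90.5%) have its GRCm38 coordinates, so positions are given as GRCm38. The table's 10 other columns of per-sample values (2 of counts with no matching FPKM column, and the FPKM columns) were not used. Columns were assigned to groups by name; their numbers differ from those of the samples. No pair of libraries differed as little as sampling noise (chi-square per degree of freedom at least 51.1).

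Counts were tested across all genes with edgeR 4.0.16 (R 4.3.3): filterByExpr, TMM, quasi-likelihood F test, two-sided, no covariates, Benjamini-Hochberg adjustment over 18315 genes, threshold 0.05. Adjusted p-values in the text are from this fit unless another tool is named. Standard errors follow from the F statistic. The step was tested on simulated data. Alternatives were RLE and upper-quartile scaling, no filter, at least 1 CPM in 4 libraries, DESeq2 1.42.0, limma 3.58.1 on log2 CPM, and leaving out each library. Genes named are the 9 members, list members that passed or are known partners, and the 5 closest profiles to Noct and Dbp. Members and lists were chosen with earlier results of these data known. RefSeq promoter windows gave sequences, and GENCODE M21 gave overlapping genes and exon lengths. A core clock gene is not reported here.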

Additional observations from a re-analysis of the deposited data

Results flagged for a closer look

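Within groups of 4 libraries, 18 sets of values (9 genes in 2 groups) were searched for a library far from its nearest neighbour by Dixon's test, which chance passes in about 1 group in 20. Ciart in rFGF21 library 3 stood at 14.4 CPM, with the other 3 treated libraries between 5.02 and 6.59 CPM, a gap of 0.833 of the range. Nfil3 in PBS library 4 stood at 7.75 CPM, with the other 3 vehicle libraries between 11.9 and 12.7 CPM, a gap of 0.851 of the range. The same PBS library had the high mitochondrial share given above; whether these are linked was not tested.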

How the results depend on the processing

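Noct was called under all 14 alternatives, with log2 fold changes from -2.90 to -2.17. Usp2 was called in 7 of 14; beside the omitted libraries named above, its call was lost with no filter on low counts (edgeR adjusted p = 0.0720), where more genes are tested. No sign reversed for any of the 9 genes. Members changed numbered 2, but 1 with no filter, 4 with DESeq2 (with Hlf and Nfil3), and 1 to 2 with a library omitted. All genes changed numbered 516, but 198 with no filter, 1527 with DESeq2, and 131 (without rFGF21 library 1) to 486 with a library omitted. The companion lists together had 7 calls, but 4 with no filter, 12 with DESeq2 and 2 to 9 with a library omitted. By list, the core clock had 0 calls with no filter, 2 with DESeq2 or limma and 0 to 1 with a library omitted; PAR bZIP targets had 2 to 4 with a library omitted; other rhythmic outputs had 3 with DESeq2 and 0 to 2 with a library omitted; nocturnin relatives had 0 with no filter and 0 to 1 with a library omitted; C/EBP genes had 1 with DESeq2 and 0 to 2 with a library omitted; glucocorticoid and fasting genes had 1 with DESeq2 or limma and 0 to 3 with a library omitted. Beyond the numbers of genes tested and of libraries, the cause was not tested. The planned fits on log2 FPKM were not run. No paired analysis was possible because the column numbers do not match the sample labels. Depth limits Bhlhe41 most, at 78 to 312 reads per library.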
